A study of Homo sapiens with 8 samples.

Results

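The response of the human hepatocellular carcinoma line Huh7.5.1 to CU27, a compound known here by its code name only, was described gene by gene. Huh7.5.1 is a subline of Huh7 and is widely used to grow hepatitis C virus. Cells had been kept for 48 h with 10 μM CU27 or with its solvent DMSO, and each treatment was represented by 2 biological replicates, hybridised to 1 expression array each. These are 4 of the 8 arrays of the series, the rest being Hep3B, a different hepatocellular carcinoma line, under the same treatments. The 2 Hep3B columns labelled CU27 were not used, because they are exact linear functions of those labelled DMSO, and the Hep3B DMSO columns entered a single alternative fit only. The labels do not say whether the replicates were separate cultures started on different days, so the spread between arrays may leave out part of the biological spread.

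Of 18132 genes with a probe set that carries a single gene symbol, 10651 reached the detection floor in at least 1 treatment and were tested. The floor is a log2 signal of 6.25, the median of all probe sets over the 4 arrays, and the probe set with the highest mean over the arrays stood for its gene. All values below are log2 signals of 1 array, or log2 differences between the mean of the CU27 arrays and the mean of the DMSO arrays, followed by ± the standard error (limma, n = 2 arrays per group). Where a group mean lay under the floor, a fold is given as a lower bound against the floor. Signals of different probe sets are not comparable with each other. Levels of different genes are therefore ranked only to pick genes or to bin them by signal.

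The genes treated here belong to systems with distinct tasks. Histones package DNA, and most histone genes lie in clusters whose transcription is tied to DNA replication. HOX genes encode transcription factors that set position along the body axis and are arranged in 4 clusters. SR proteins and hnRNPs bind new transcripts and steer their splicing. Rab GTPases, SNAREs and coat proteins move membrane between organelles, while TIMPs, the tissue inhibitors of metalloproteinases, limit the breakdown of the matrix around cells. Hepatocyte-derived cells also secrete most plasma proteins, among them protease inhibitors of the serpin family.

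The arrays agreed closely. Pearson correlations over probe sets were 0.993 between the DMSO arrays, 0.991 between the CU27 arrays and 0.974 to 0.985 between treatments, and array medians lay between 6.23 and 6.27. For ACTB, the 3′ control probe set exceeded the 5′ one, a gap that grows as RNA degrades. It was 0.94 and 1.06 in DMSO and 0.98 and 1.21 in CU27. For GAPDH the gap was 0.07 and 0.09 in DMSO and 0.05 and 0.14 in CU27. Both genes had their largest gap on CU27 replicate 2. All 13 hepatocyte and hepatoma markers on the array reached the floor. All 5 endothelial markers lay under it, as did 6 of 7 stellate cell and fibroblast markers and 4 of 6 leukocyte markers, including PTPRC, CD3E, CD14 and ITGAM. Of 6 cholangiocyte markers, KRT7, KRT19 and CFTR lay under the floor. In RNA from whole cultures, fewer cells of a type and less RNA per cell cannot be told apart.

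CU27 changed 2400 of the 10651 tested genes (limma, adjusted p threshold 0.05), which is 22.5% of them. A total of 1194 genes rose, or 11.2%, and 1206 fell, or 11.3%. The median change of all tested genes was 0.02. Among the genes past the test, rises had a median of 0.78 and falls one of -0.78. Of the rises 284 were at least 2-fold and 24 at least 4-fold, and of the falls 277 and 9. The values of the CU27 arrays lay all above or all below those of the DMSO arrays for 65.3% of tested genes, against the 22.5% past the test. Among the genes past the test 0 had overlapping arrays.

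How many genes passed rested in part on single arrays. Leaving out DMSO replicate 1 gave 1535 changed genes, leaving out DMSO replicate 2 gave 968, leaving out CU27 replicate 1 gave 2976 and leaving out CU27 replicate 2 gave 1586. A core of 788 genes, 399 that rose and 389 that fell, was past the test with any of the 4 arrays left out. In the paragraphs that follow, a gene whose call was lost without some array is named as such. A call also counts as lost where the gene lay under the floor without that array and was not tested. Genes with higher signal were called slightly more often, with 18.4% changed in the lowest of 4 equal bins of mean signal and 25.3% in the highest.

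**Figure D1:**
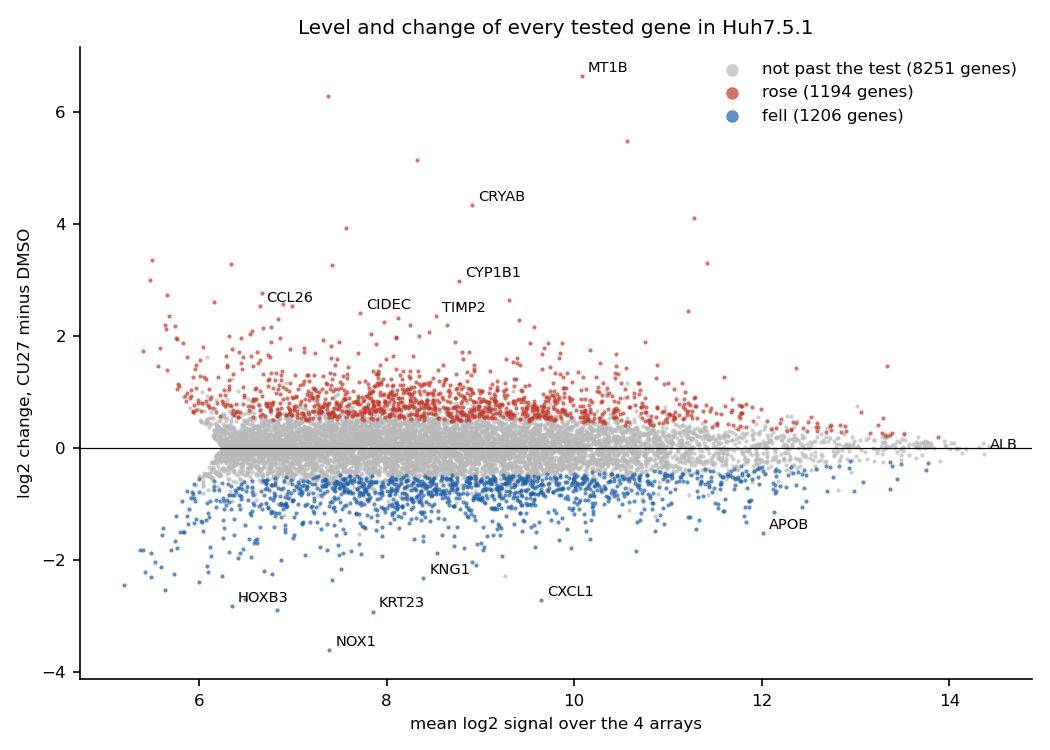
Change with CU27 (vertical axis, log2) against the mean log2 signal over the 4 arrays (horizontal axis) for the 10651 tested genes, with genes past the test in red (rose) and blue (fell). Rises and falls are nearly equal in number, 1194 and 1206, and the most extreme rise, MT1B at 6.65, lies farther from 0 than the most extreme fall, NOX1 at -3.62.

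The largest rises were led by metallothionein genes, whose products bind zinc and copper. MT1B read 7.14 and 6.37 in DMSO and 13.06 and 13.75 in CU27, and MT1G read 9.70 and 8.76 against 12.89 and 13.78. Every metallothionein gene tested, 10 of 10 including pseudogenes, rose, by 1.30 to 6.65. These transcripts are nearly identical, so the share of each single member is uncertain. MT1IP was the one whose call was lost without single arrays, namely DMSO replicate 1 or CU27 replicate 2. The MT1B promoter is shown because the gene had the largest rise and because metallothionein promoters are known for metal response elements, the binding sites of the zinc sensor MTF1. Capitals mark matches to the core TGCACNC or TGCGCNC on either strand, of which this promoter holds 3. A match is a description of the letters and no sign of binding.
MT1B, GRCh38.p14, chr16:56651636-56651935, plus strand: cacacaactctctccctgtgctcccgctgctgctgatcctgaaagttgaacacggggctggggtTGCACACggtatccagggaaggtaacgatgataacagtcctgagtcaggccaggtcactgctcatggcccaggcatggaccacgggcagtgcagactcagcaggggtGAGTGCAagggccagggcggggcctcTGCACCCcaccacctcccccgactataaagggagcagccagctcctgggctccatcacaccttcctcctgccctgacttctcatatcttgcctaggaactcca

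Several large changes, picked after their values were seen, were of genes of fat and fuel metabolism, in both directions. CIDEC, which enlarges lipid droplets, read 6.18 and 6.84 in DMSO and 8.67 and 9.17 in CU27, a rise of 2.41 ± 0.26 (adjusted p = 0.00447) seen in all 4 of its probe sets above the floor, from 1.85 to 2.41. FABP3, a carrier of fatty acids in the cytosol, read 7.91 and 6.02 in DMSO and 8.97 and 9.58 in CU27. Its rise of 2.31 ± 0.56 (adjusted p = 0.0310) was lost without CU27 replicate 2, and its DMSO arrays differed by nearly as much as the groups did. PDK1, the kinase that turns off pyruvate dehydrogenase, rose by 2.07 ± 0.23, from 7.38 and 7.46 to 9.16 and 9.83. In the other direction, GPAM, which adds the first fatty acid to glycerol phosphate at the mitochondrion, read 10.84 and 10.88 in DMSO and 9.25 and 8.88 in CU27. Its change of -1.79 ± 0.16 (adjusted p = 0.00372) was shared by its 4 probe sets, from -1.82 to -1.78. G0S2, an inhibitor of the fat-splitting lipase ATGL, fell at least 2.33-fold, from 7.56 and 7.38 to 5.83 and 5.71, while its weakest probe set had a change of -0.44.

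Further large rises fell in no single system. CD68, a lysosomal glycoprotein used as a macrophage marker, read 7.04 and 6.67 in DMSO and 8.86 and 9.34 in CU27 and rose by 2.25 ± 0.21, or by 1.00 in its weaker probe set. It was the one leukocyte marker of the 2 above the floor that rose. CREBRF, a regulator of the CREB3 transcription factors, rose by 2.20 ± 0.22, from 7.84 and 7.24 to 9.87 and 9.62, and its 7 probe sets ran from 1.84 to 2.44. AQP3, a water and glycerol channel, read 7.46 and 7.25 against 9.28 and 9.41, a rise of 1.99 ± 0.15. CPA4, a secreted carboxypeptidase, lay under the floor in DMSO at 5.70 and 5.75 and read 7.57 and 8.96 in CU27, at least 4.04-fold higher. AKR1C1, a ketosteroid reductase with near-identical relatives, rose by 2.56 ± 0.71 (adjusted p = 0.0440), a call lost without CU27 replicate 2. The same array decided the call of the inducible HSP70 gene HSPA1B, at 2.28 ± 0.46, which is itself hard to separate from its twin HSPA1A.

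The largest falls included an oxidase, a keratin and a group of chemokines. NOX1, an NADPH oxidase that makes superoxide, read 8.58 and 9.81 in DMSO and 5.94 and 5.21 in CU27, both under the floor, so that it was at least 7.70-fold lower (log2 change -3.62 ± 0.42, adjusted p = 0.00485). KRT23, an acidic keratin, went from 8.65 and 9.99 to 6.89 and 5.88, a change of -2.93 ± 0.48. CXCL1 read 11.07 and 10.95 in DMSO and 8.98 and 7.59 in CU27, CXCL2 10.02 and 9.86 against 8.17 and 8.06, and CXCL3 9.59 and 9.37 against 8.12 and 7.06. These genes encode neutrophil attractants that share much of their sequence, and their changes were -2.73 ± 0.41, -1.82 ± 0.14 and -1.89 ± 0.33. SLPI, a secreted inhibitor of neutrophil elastase, fell too, from 10.31 and 10.08 to 8.91 and 7.61. For CXCL1, CXCL3 and SLPI the CU27 arrays lay more than 1 log2 unit apart, with replicate 2 the lower.

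Further large falls were of genes with varied roles. PDGFRA, a receptor tyrosine kinase for platelet-derived growth factor, read 8.32 and 8.63 in DMSO and 6.39 and 6.81 in CU27, a change of -1.87 ± 0.20 (adjusted p = 0.00442). FLRT2, an adhesion protein, had one of -1.93 ± 0.17, with 8.94 and 8.89 against 7.18 and 6.80. CA4, a carbonic anhydrase anchored on the outer membrane, went from 9.65 and 10.34 to 8.15 and 7.66. C4BPA, which restrains complement, read 9.97 and 9.91 against 8.52 and 7.26, a change of -2.05 ± 0.37. SLC6A14, an importer of neutral and basic amino acids, was at least 4.09-fold lower, since it read 6.17 and 4.60 in CU27 after 8.08 and 8.49 in DMSO. APH1B, a subunit of the protease gamma-secretase, changed by -2.16 ± 0.26, and its 5 probe sets ran from -2.16 to -1.37. FJX1, a secreted glycoprotein of the four-jointed family, was at least 5.07-fold lower, from 8.44 and 8.74 to 6.13 and 6.35. SPX, the precursor of the peptide hormone spexin, had a change of -1.77 ± 0.17. Of the 50 largest changes, the calls of AKR1C1, FABP3 and HSPA1B were the ones lost when an array was left out.

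**Figure D2:**
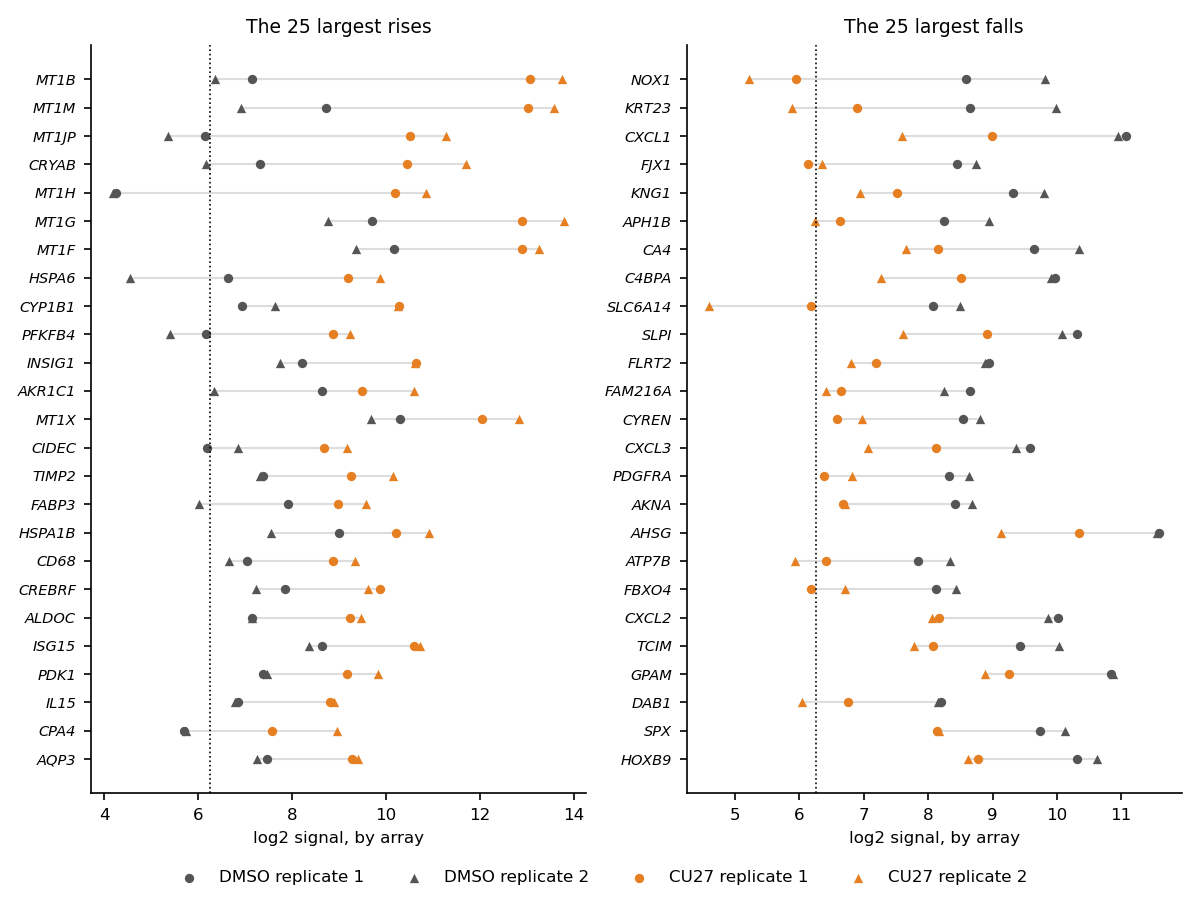
Log2 signal on each of the 4 arrays for the 25 largest rises (left) and the 25 largest falls (right), with DMSO in grey, CU27 in orange, circles for replicate 1, triangles for replicate 2 and a dotted line at the floor. Genes were chosen so that CU27 and DMSO symbols do not overlap, and the spread within DMSO is widest for AKR1C1 and HSPA6, with 8.63 and 6.34 and with 6.64 and 4.56.

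Genes outside all families examined were ranked by their p. Among those that rose, BBOX1, the last enzyme of carnitine synthesis, was at 3.95 and 3.69 in DMSO and at 6.82 and 7.54 in CU27, at least 1.90-fold higher. OLFML2A, an extracellular olfactomedin protein, read 5.64 and 5.73 against 7.74 and 7.96 and was at least 3.03-fold higher. PLSCR4, a phospholipid scramblase, was at least 3.01-fold higher, with 5.92 and 5.84 against 7.96 and 7.73. Among those that fell, CGA, the alpha subunit shared by the gonadotropins and thyrotropin, read 7.62 and 8.04 in DMSO and 5.36 and 4.92 in CU27, at least 2.99-fold lower. LCN2, a secreted protein that binds bacterial siderophores, was at least 2.18-fold lower, and GSTA2, a glutathione transferase of hepatocytes, at least 1.94-fold lower. LAMP3, a lysosomal membrane protein, and HAL, which starts the breakdown of histidine, left the range above the floor, from 6.59 and 6.73 to 4.48 and 4.57 and from 6.31 and 6.54 to 4.21 and 3.73. RCC2, a chromatin-bound regulator of mitosis, stayed well above the floor and had a change of -1.24 ± 0.12.

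Families were then read against the background of 11.2% of tested genes that rose and 11.3% that fell. Of 67 families with at least 8 tested members, 16 had at least 5 members past the test in a direction and at least 1.5 times the background share there. Those are described with their members, a selection made after the counts were seen. The counts describe these arrays, and no family was tested as a set. A gene with a mean under the floor in a treatment entered only through its higher mean. Its call could go in a single direction.

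**Figure D3:**
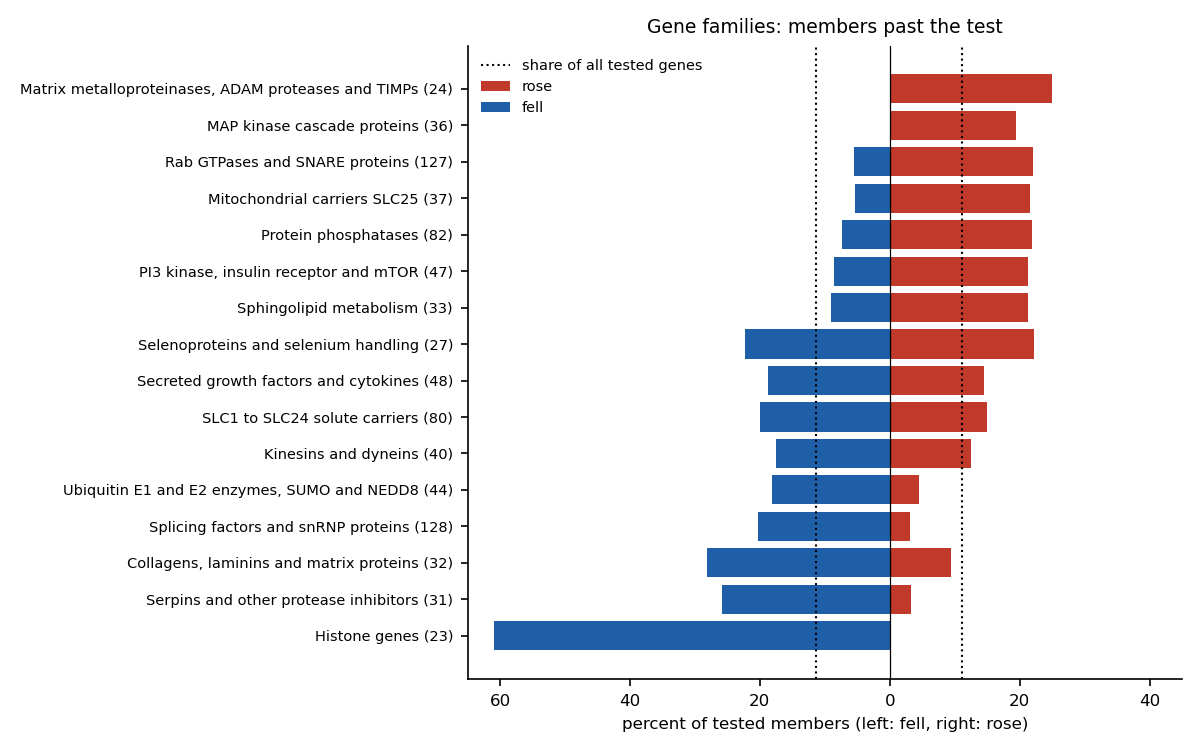
Share of tested members that rose (right, red) and fell (left, blue) in the 16 families described, with the number of tested members in parentheses and dotted lines at the shares of all tested genes, 11.2% and 11.3%. Histone genes have the largest share of falls, 60.9%, and metalloproteinases with their inhibitors the largest share of rises, 25%. Members with a mean under the floor in a treatment could be called in a single direction only.

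Histone genes had the largest share of falls among the 16 families. The array holds 76 histone genes, and most of them were not tested because they lay under the floor in both treatments. Of 23 tested members, 14 fell and 0 rose, and the family's median change was -1.05, against 0.02 for all tested genes. Counting any treatment mean below the floor as the floor itself made the family's median -0.75. Among the falls, H3C4, H2BC11, H2AC11 and H2AJ lay under the floor in CU27 and could not have been called as rises. The count of falls stayed between 11 and 15 with any array left out. The clustered genes H2BC12, H2AC6, H2BC5, H3C4 and H4C3 encode core histones that are made during DNA replication. H2BC12 read 12.33 and 12.66 in DMSO and 11.18 and 11.16 in CU27, a change of -1.32 ± 0.13 (adjusted p = 0.00413). For H2BC5 the values were 10.70 and 10.63 against 9.52 and 8.52, with a change of -1.65 ± 0.30 and 3 probe sets from -1.66 to -1.60. H2AC6 went from 9.65 and 10.07 to 8.55 and 8.03, a change of -1.57 ± 0.22. H4C3 went from 13.12 and 12.79 to 12.08 and 11.73, a change of -1.05 ± 0.15. H3C4, with a mean of 7.80 in DMSO, dropped just under the floor on both CU27 arrays, at 6.20 and 6.19, and was at least 2.93-fold lower. In all these genes both CU27 arrays lay below both DMSO arrays. This adds nothing to their calls, since 0 of the genes past the test overlapped and 65.3% of all tested genes did not overlap.

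Of the 7 tested histone genes outside the clusters 4 fell and 0 rose, namely H2AZ1, H2AX, H2AJ and H3-3B. H2AZ1, a variant placed at promoters, read 13.70 and 13.76 in DMSO and 13.04 and 12.96 in CU27, a change of -0.73 ± 0.06 (adjusted p = 0.00372) that its 4 probe sets shared, from -0.84 to -0.62. H2AX, the variant phosphorylated at DNA breaks, went from 10.79 and 10.61 to 9.76 and 9.28, a change of -1.18 ± 0.19. H3-3B, which encodes the replication-independent H3.3, had a smaller change of -0.36 ± 0.07, lost without either DMSO array. The cluster genes H2BC11, H2AC8 and H4C8 passed the test. Without DMSO replicate 2, H2BC11 lay under the floor and was not tested, and H2AC8 and H4C8 lost their calls. The call of H2AC8 was also lost without CU27 replicate 1, and that of H4C8 without CU27 replicate 2. H2AC20 read 11.46 and 9.36 in DMSO and 9.28 and 6.96 in CU27 and did not pass (-2.29 ± 0.87, adjusted p = 0.105), its replicates in each group being more than 2 log2 units apart. Histone genes resemble each other closely, and the array labels poly-adenylated RNA, whereas cluster histone messages mostly lack a poly(A) tail, so the level of any single member is uncertain.

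The promoters of 4 falling cluster histone genes are shown because the genes changed together. Capitals mark CCAAT and TATAAA on either strand, elements known from histone promoters. The CCAAT box was found in 12 of 13 promoters of histone genes that fell and in 19 of 22 of all tested histone genes, against 36.5% of the promoters of all tested genes. TATAAA was found in 11 of 13 and in 16 of 22, against 6.15%. These promoters are related by descent, so they are not independent examples.
H2BC12, GRCh38.p14, chr6:27146806-27147105, minus strand: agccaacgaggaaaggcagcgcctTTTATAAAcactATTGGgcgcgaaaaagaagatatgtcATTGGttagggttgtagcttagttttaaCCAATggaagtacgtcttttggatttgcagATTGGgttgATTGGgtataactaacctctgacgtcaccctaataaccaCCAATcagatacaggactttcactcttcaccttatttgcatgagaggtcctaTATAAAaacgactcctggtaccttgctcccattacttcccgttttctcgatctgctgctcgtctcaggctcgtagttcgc
H2BC5, GRCh38.p14, chr6:26157871-26158170, plus strand: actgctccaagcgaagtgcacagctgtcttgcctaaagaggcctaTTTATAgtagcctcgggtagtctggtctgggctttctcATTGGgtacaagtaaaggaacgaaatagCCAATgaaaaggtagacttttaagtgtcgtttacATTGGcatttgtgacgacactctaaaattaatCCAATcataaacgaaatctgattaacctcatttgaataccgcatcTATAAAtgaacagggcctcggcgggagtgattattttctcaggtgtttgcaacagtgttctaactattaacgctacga
H2AC6, GRCh38.p14, chr6:26123922-26124221, plus strand: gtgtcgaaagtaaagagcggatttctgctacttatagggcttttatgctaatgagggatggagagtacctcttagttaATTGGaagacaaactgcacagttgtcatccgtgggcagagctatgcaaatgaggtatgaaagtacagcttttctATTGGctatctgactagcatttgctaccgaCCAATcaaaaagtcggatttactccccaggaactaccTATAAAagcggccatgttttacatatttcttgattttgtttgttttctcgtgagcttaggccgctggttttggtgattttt
H3C4, GRCh38.p14, chr6:26197237-26197536, minus strand: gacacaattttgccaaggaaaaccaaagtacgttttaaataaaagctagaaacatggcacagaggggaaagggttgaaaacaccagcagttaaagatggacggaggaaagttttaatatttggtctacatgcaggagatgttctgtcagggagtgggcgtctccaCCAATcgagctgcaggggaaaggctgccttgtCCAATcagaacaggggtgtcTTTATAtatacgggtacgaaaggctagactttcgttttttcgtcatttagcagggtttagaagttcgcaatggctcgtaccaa

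Several HOXB genes fell. The 1 HOXA gene with a single-symbol probe set lay under the floor in both treatments and was not tested. The array holds 10 HOXB genes, of which 6 were tested, and of these 5 fell and 0 rose. HOXB3 and HOXB8, under the floor in CU27, were tested only through their DMSO means and could not count as rises. Among 8 tested HOXC genes 1 fell and among 4 HOXD genes 0 fell, while 0 of either rose. HOXB9 read 10.31 and 10.62 in DMSO and 8.78 and 8.62 in CU27, a change of -1.77 ± 0.16 (adjusted p = 0.00372). HOXB3 went from 7.54 and 7.99 to 5.37 and 4.50, under the floor, and was at least 2.85-fold lower. HOXB6 had a change of -1.55 ± 0.16, with 8.37 and 8.10 against 6.76 and 6.60. HOXB8, at 6.60 and 6.76 in DMSO, was at least 1.34-fold lower. HOXB7 changed by -0.80 ± 0.16 and lost its call without DMSO replicate 2, as did HOXC8 at -0.84 ± 0.16. The wider family of homeobox, SOX, FOX and T-box factors had 13 falls and 0 rises among 78 tested genes, with a median of -0.03. Leaving out DMSO replicate 2 left 8 falls, and leaving out CU27 replicate 1 gave 5 rises beside 14 falls.

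Many regulators of splicing fell. In the family of splicing factors and snRNP proteins 26 of 128 tested members fell and 4 rose, with a median of -0.04 against 0.02 for all tested genes. The falls lay mainly in RNA-binding regulators, with 8 of 12 SRSF genes and 9 of 19 hnRNP genes. Of 19 genes with Sm or LSm symbols, 1 fell, SNRPF, and 1 rose, LSM14B. These were picked by symbol, so not all of them need belong to the core of the snRNPs. SRSF1, the founding SR protein, read 11.78 and 11.74 in DMSO and 10.81 and 10.94 in CU27, a change of -0.88 ± 0.11 (adjusted p = 0.00543) with 6 probe sets from -1.54 to -0.88. SRSF7 went from 11.24 and 11.44 to 10.30 and 10.39, a change of -0.99 ± 0.13, and SRSF3 from 11.99 and 12.16 to 11.32 and 11.35, a change of -0.74 ± 0.10. HNRNPU, a nuclear matrix RNA-binding protein, read 11.79 and 12.16 against 10.83 and 10.54, a change of -1.29 ± 0.16, although its 8 probe sets ran from -1.51 to 0.06. HNRNPA2B1 changed by -0.80 ± 0.11, its other probe set by -0.18. The kinase CLK3, which phosphorylates SR proteins, rose by 0.78 ± 0.17 and SF3B2, a U2 snRNP subunit, by 0.71 ± 0.16. Both calls were lost on leaving out DMSO replicate 2 or CU27 replicate 2, that of CLK3 also without DMSO replicate 1. Leaving out DMSO replicate 2 gave 15 falls and 0 rises, leaving out CU27 replicate 1 gave 30 and 12, leaving out CU27 replicate 2 gave 26 and 0, and leaving out DMSO replicate 1 gave 18 and 2.

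**Figure D4:**
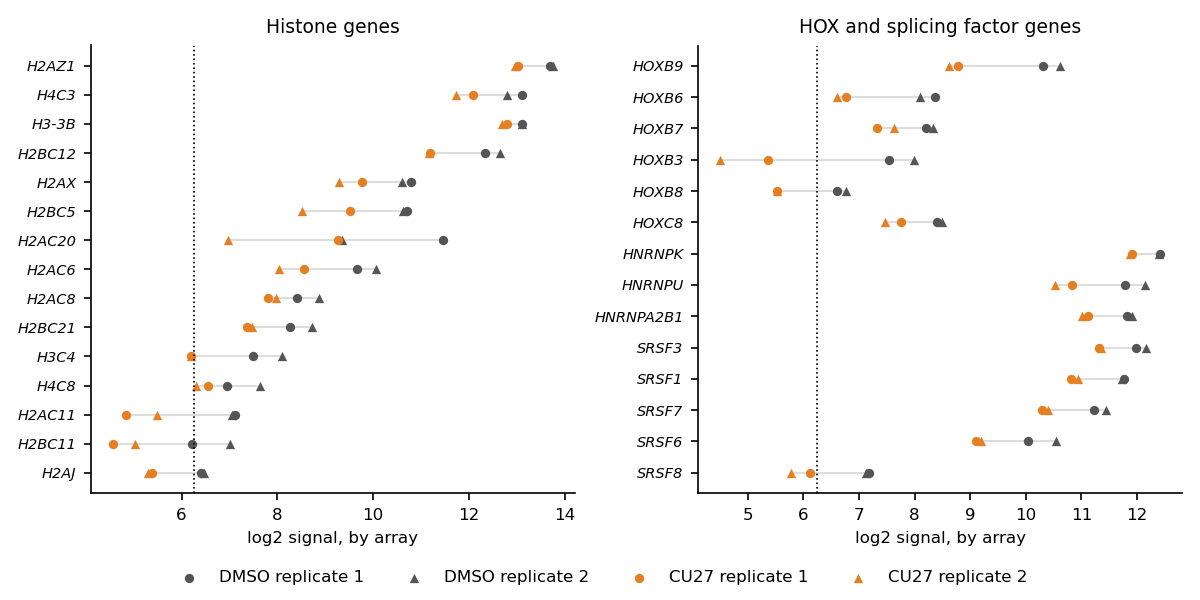
Log2 signal on each array for 15 histone genes (left) and for HOX and splicing factor genes (right), with DMSO in grey, CU27 in orange, circles for replicate 1, triangles for replicate 2 and a dotted line at the floor. Both CU27 arrays lie below both DMSO arrays in every gene drawn, and H2AC20, the one not past the test, has the widest spread within each treatment. Treatments do not overlap in any gene past the test, nor in 65.3% of all tested genes.

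Genes of membrane traffic rose more often than they fell. Of 127 tested Rab GTPases, SNAREs and their regulators, 28 rose and 7 fell, with a median of 0.23. SYT7, a calcium sensor of lysosome fusion, read 7.28 and 7.17 in DMSO and 8.57 and 8.62 in CU27, a rise of 1.37 ± 0.14 (adjusted p = 0.00442). STX11, a SNARE of granule secretion, lay under the floor in DMSO at 5.93 and 5.95 and was at least 2.49-fold higher in CU27. RAB11FIP5, an effector of recycling endosomes, rose by 1.25 ± 0.17, and TBC1D10A, a GTPase-activating protein for Rabs, by 1.13 ± 0.16. Among those that fell, RAB23, a GTPase tied to hedgehog signalling, changed by -1.05 ± 0.14 and RAB8B, of the route to the plasma membrane, by -1.33 ± 0.21. The count of rises was 16 without DMSO replicate 1, 12 without DMSO replicate 2, 33 without CU27 replicate 1 and 14 without CU27 replicate 2, and that of falls 3, 2, 7 and 3.

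Coats and tethers were not among the 16 families. Of 184 tested members 29 rose, or 15.8%, against 11.2% of all tested genes, and 7 fell. Both numbers changed with the array left out. Coats and tethers had a median change of 0.18. Within them, 4 of 6 SEC23 and SEC24 genes, which form the coat of vesicles leaving the endoplasmic reticulum, and 5 of 11 golgins, tethers of the Golgi, rose, and 0 of either fell. COPI genes, of a different coat, had 3 rises and 0 falls among 8 tested. Adaptor complex genes had 4 rises and 2 falls among 25. SEC24A read 8.58 and 8.63 in DMSO and 9.57 and 9.60 in CU27, and its 4 probe sets ran from 0.97 to 1.49. GOLGA2, the cis-Golgi tether GM130, rose by 1.20 ± 0.15, from 8.53 and 8.62 to 9.68 and 9.88. GOLGA4 rose by 0.83 ± 0.12, and SEC24D, at 6.04 and 6.36 in DMSO, was at least 2.24-fold higher.

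All 4 genes of the TIMP family rose. TIMP2 read 7.38 and 7.32 in DMSO and 9.26 and 10.15 in CU27, a rise of 2.36 ± 0.28 (adjusted p = 0.00532), or 0.98 in its weaker probe set. TIMP4 went from 8.24 and 7.80 to 9.25 and 9.25, a rise of 1.23 ± 0.18, and TIMP3 from 8.26 and 8.47 to 9.27 and 9.29, a rise of 0.91 ± 0.15. TIMP1 lay under the floor in DMSO, at 6.01 and 6.12, and was at least 1.83-fold higher. Like MMP1 and ADAMTS12 below, it was tested only through its CU27 mean and could not count as a fall. Of the target proteases of TIMPs, MMP1, the interstitial collagenase, was the one MMP gene to pass. It read 4.78 and 4.80 in DMSO and 6.47 and 7.01 in CU27, at least 1.40-fold higher. Together with ADAMTS12, whose call was lost on leaving out either DMSO array or CU27 replicate 2, these made 6 rises and 0 falls among 24 tested members, with a median of 0.11.

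Genes of the matrix itself fell more often than they rose, 9 against 3 of 32 tested, with a median of -0.12. THBS4, a matricellular thrombospondin, read 8.32 and 8.38 in DMSO and 6.66 and 6.58 in CU27, a change of -1.73 ± 0.14 (adjusted p = 0.00359). COL2A1, the fibrillar collagen known from cartilage, went from 12.23 and 12.61 to 11.22 and 11.18, a change of -1.22 ± 0.14. COL14A1 changed by -1.71 ± 0.23 and the basement membrane linker NID1 by -0.80 ± 0.11. LAMB3, a chain of an epithelial laminin, rose from 4.45 and 4.73, under the floor, to 6.28 and 7.14, at least 1.38-fold. COL7A1, the anchoring fibril collagen, rose by 0.87 ± 0.19, a call lost without DMSO replicate 2 or CU27 replicate 2. Without DMSO replicate 2 the family had 5 falls and 1 rise, and rises numbered 2, 5 and 1 without DMSO replicate 1, CU27 replicate 1 and CU27 replicate 2.

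Secreted signals had 9 falls among 48 tested growth factors and cytokines, or 18.75%, against 11.3% of all tested genes, with a median of -0.07. The 7 rises, or 14.6%, stayed under 1.5 times the background share of 11.2%. IL15, a cytokine that sustains natural killer cells, read 6.85 and 6.78 in DMSO and 8.80 and 8.88 in CU27, a rise of 2.03 ± 0.14 (adjusted p = 0.00359), or 2.64 in its other probe set. CCL26, an eosinophil attractant, lay under the floor at 5.25 and 5.52 and was at least 3.18-fold higher in CU27, at 7.35 and 8.49. EDN1, the vasoconstrictor endothelin, went from 9.96 and 9.84 to 8.62 and 8.29, a change of -1.44 ± 0.16. EREG, a ligand of the EGF receptor, read 6.48 and 7.35 against 4.69 and 4.06, at least 1.58-fold lower. FST, which captures activins, changed by -1.28 ± 0.17 and STC2 by -1.07 ± 0.14. FGF19, INHBE and BMP1, added after their values were seen, were past the test as well, the first 2 at -1.52 ± 0.21 and -1.63 ± 0.24 and BMP1 at least 2.36-fold higher. The count of rises was 4 without CU27 replicate 2, and the falls numbered 7 to 9 with any array left out.

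Serpins and other protease inhibitors fell more often than they rose, with 8 falls and 1 rise among 31 tested and a median of -0.10. KNG1, the precursor of bradykinin, read 9.32 and 9.79 in DMSO and 7.52 and 6.94 in CU27. SERPINA1, alpha-1 antitrypsin, changed by -0.61 ± 0.07, from 13.35 and 13.41 to 12.80 and 12.75, and SERPINC1, antithrombin, by -1.10 ± 0.18. SPINT1, an inhibitor of membrane-bound serine proteases, rose by 0.84 ± 0.13. The falls numbered 5 without either DMSO array. Of 13 hepatocyte and hepatoma markers 7 fell and 0 rose, or 4 fell without DMSO replicate 2 and 6 to 10 without any one of the other arrays. The 7 falls make 53.8% of the list, against 11.3% of all tested genes. The list had a summed linear signal of 115736 and 122970 units in DMSO and 97309 and 77769 in CU27. Signals of different probe sets are not comparable, and the sum gives most weight to the strongest, such as ALB, which did not pass at -0.10. APOB, the lipoprotein scaffold, was among the markers that fell, at -1.53 ± 0.18. The part of these markers in the falls of secreted genes was not tested.

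**Figure D5:**
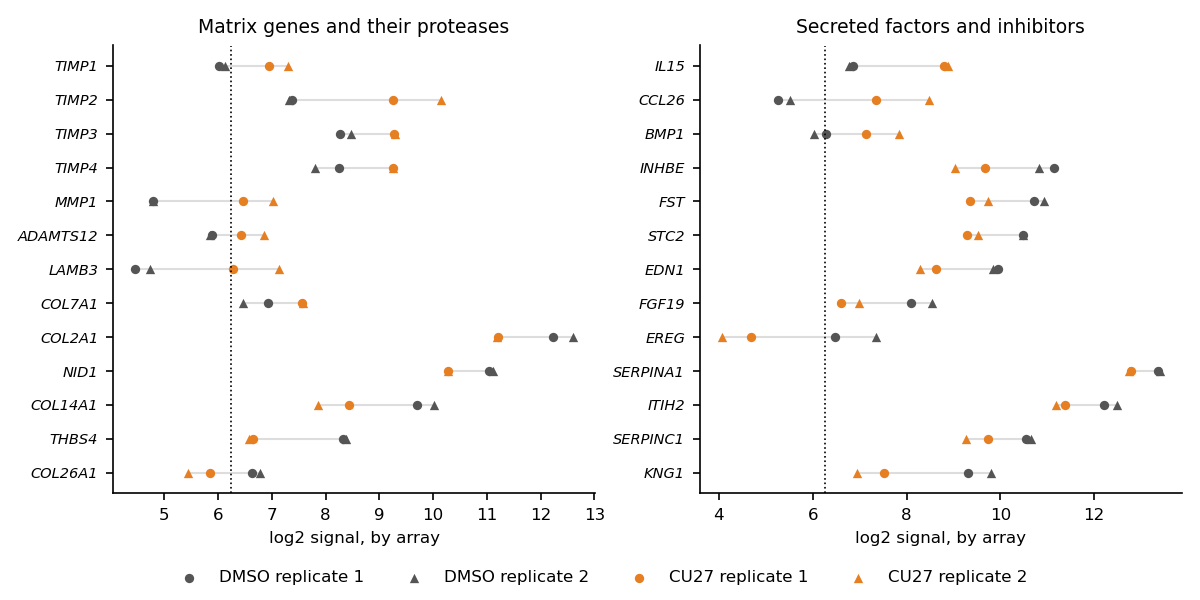
Log2 signal on each array for matrix genes and proteases (left) and for secreted factors and protease inhibitors (right), with DMSO in grey, CU27 in orange, circles for replicate 1, triangles for replicate 2 and a dotted line at the floor. The 4 TIMP genes, MMP1 and LAMB3 read higher in CU27, while COL2A1, THBS4, EREG and KNG1 read lower. They do not overlap between treatments, which holds for every gene past the test and for 65.3% of all tested genes.

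Of the signalling families, 3 are described with their members. Of the others, genes of cAMP signalling had 4 rises and 1 fall of 42 tested, ephrins and semaphorins 4 and 3 of 38, the Wnt pathway 2 and 3 of 34, TNF and interleukin receptors 3 and 5 of 41, and G protein coupled receptors and G proteins 7 and 9 of 69. Without CU27 replicate 2 the last of these had 8 rises and 4 falls. Of 36 proteins of the MAP kinase cascade, 7 rose and 0 fell, with a median of 0.05. SOS1, the exchange factor that activates RAS, read 8.72 and 8.92 in DMSO and 10.44 and 10.56 in CU27, a rise of 1.68 ± 0.14 (adjusted p = 0.00372), although its 4 probe sets ran from 0.17 to 2.08. MAP2K1, the kinase MEK1, rose by 0.75 ± 0.11, from 10.98 and 10.86 to 11.59 and 11.75, and MAPK7, which encodes ERK5, was at least 1.60-fold higher. MAP3K21 rose by 0.78 ± 0.15 and lost its call without DMSO replicate 1. The rises numbered 3 and 4 without DMSO replicates 1 and 2, and 10 and 5 without CU27 replicates 1 and 2, and 2 genes fell without CU27 replicate 1.

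In insulin, PI3 kinase and mTOR signalling 10 of 47 tested members rose and 4 fell, with a median of 0.09. INPP5F, an inositol phosphatase, read 6.78 and 6.92 in DMSO and 8.36 and 8.71 in CU27, a rise of 1.69 ± 0.17 (adjusted p = 0.00442). IRS2, the docking protein of the insulin receptor, lay under the floor in DMSO at 5.24 and 4.32 and was at least 1.40-fold higher in CU27. DEPTOR, which binds and inhibits mTOR, rose by 0.86 ± 0.17. EIF4EBP1, the translation repressor that mTOR phosphorylates, went from 11.91 and 11.80 to 11.16 and 11.12, a change of -0.71 ± 0.10, and PIK3R1, a regulatory PI3 kinase subunit, changed by -0.95 ± 0.14, with 8 probe sets from -0.95 to -0.02. The rises numbered 4, 3 and 3 on leaving out DMSO replicate 1, DMSO replicate 2 and CU27 replicate 2, in that order.

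Protein phosphatases counted 18 rises and 6 falls among 82 tested, with a median of 0.07. PTPRR, a receptor-type phosphatase that acts on MAP kinases, lay under the floor at 5.43 and 5.22 in DMSO and read 7.04 and 7.61 in CU27, at least 2.11-fold higher, and its 3 probe sets ran from 2.00 to 3.16. PPP3CC, a catalytic subunit of calcineurin, rose by 1.58 ± 0.20 and the targeting subunit PPP1R16A by 1.48 ± 0.19. PPP1R35, a centriole protein, changed by -0.89 ± 0.14, and CDC25A, which starts S phase, by -0.83 ± 0.14, a call lost without DMSO replicate 1. Rises numbered 10, 6 and 9, and falls 4, 3 and 5, on leaving out DMSO replicate 1, DMSO replicate 2 and CU27 replicate 2, in that order.

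Solute carriers of the SLC1 to SLC24 families had 16 falls among 80 tested, or 20%, against 11.3% of all tested genes, with a median of -0.06. The 12 rises, or 15%, against 11.2% of all tested genes, stayed under the share by which families were chosen. SLC4A7, a sodium bicarbonate cotransporter, read 10.54 and 10.52 in DMSO and 9.44 and 9.39 in CU27, a change of -1.12 ± 0.13 (adjusted p = 0.00466), or -0.39 in its other probe set. SLC1A3, a glutamate importer, changed by -1.33 ± 0.16. SLC2A2, the hepatic glucose carrier GLUT2, was at least 1.21-fold lower, but lay under the floor and was not tested without DMSO replicate 2. SLC2A6 changed by -1.05 ± 0.14. SLC2A14 rose by 1.37 ± 0.14, from 7.49 and 7.64 to 8.90 and 8.96, but is nearly identical to SLC2A3. SLC17A5, which exports sialic acid from lysosomes, rose by 1.06 ± 0.14 in 5 concordant probe sets. Without DMSO replicate 2 the family had 9 falls and 8 rises, and without CU27 replicate 2 it had 8 rises.

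Among 37 mitochondrial carriers of the SLC25 family, 8 rose and 2 fell, with a median of 0.15, but single arrays decided most of these calls. SLC25A30, which rose by 0.86 ± 0.14, was the one held with any array left out. SLC25A15, the ornithine carrier of the urea cycle, changed by -0.77 ± 0.15, and SLC25A20, the carrier of acylcarnitines, by -0.86 ± 0.18, both lost without DMSO replicate 2. Rises numbered 3, 1 and 2, and falls 3, 0 and 3, on leaving out DMSO replicate 1, DMSO replicate 2 and CU27 replicate 2, in that order.

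Copper handling was not among the 16 families, with 4 rises and 3 falls among 19 tested genes, but held one of the largest falls. ATP7B, the copper pump mutated in Wilson disease, read 7.84 and 8.34 in DMSO and 6.41 and 5.93 in CU27, at least 3.58-fold lower (adjusted p = 0.00592). LOXL2, a copper-dependent cross-linker of collagen, lay under the floor in DMSO and was at least 1.45-fold higher. The chaperones ATOX1 and COX17 had rises of 0.66 ± 0.16 and 0.52 ± 0.12 and SOD1 one of 0.54 ± 0.11. The list had 1 rise and 1 fall on leaving out DMSO replicate 2, 2 rises and 3 falls on leaving out DMSO replicate 1 and 2 of each on leaving out CU27 replicate 2. Without DMSO replicate 2 the calls of ATOX1, COX17 and SOD1 were all lost, and those of ATOX1 and COX17 also without DMSO replicate 1 or CU27 replicate 2.

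Selenium genes had 6 rises and 6 falls among 27 tested, with a median of -0.02. Among the members that rose, GPX3, the plasma glutathione peroxidase, rose by 1.26 ± 0.18, from 9.04 and 9.46 to 10.38 and 10.63, and SELENOW by 1.09 ± 0.21. SELENOS, a membrane protein of the degradation machinery of the endoplasmic reticulum, rose by 0.61 ± 0.11. Among the members that fell, SEPSECS, which makes selenocysteine on its tRNA, went from 9.36 and 9.62 to 8.17 and 8.32, a change of -1.24 ± 0.16 (adjusted p = 0.00626). SEPHS2, which makes the selenium donor, changed by -0.81 ± 0.15. Calls of SELENOS and SEPHS2 were lost without DMSO replicate 2, and the family then had 2 rises and 1 fall. Without DMSO replicate 1 it had 3 rises and 2 falls, without CU27 replicate 2 it had 3 rises and 4 falls, and without CU27 replicate 1 it had 7 and 4.

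In sphingolipid metabolism 7 of 33 tested genes rose and 3 fell, with a median of 0.09. SMPDL3B, a membrane-bound relative of acid sphingomyelinase, read 7.83 and 7.92 in DMSO and 6.25 and 5.48 in CU27, at least 3.08-fold lower, and its 3 probe sets ran from -2.01 to -1.50. Its soluble relative SMPDL3A rose by 0.83 ± 0.16 and the glucosylceramidase GBA2 by 0.83 ± 0.16. Without DMSO replicate 2 no gene of the family rose by the test and SMPDL3B alone fell, whereas without DMSO replicate 1 there were 4 rises and 2 falls, without CU27 replicate 1 there were 5 and 2, and without CU27 replicate 2 there were 6 and 1.

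Of 44 enzymes of ubiquitin, SUMO and NEDD8 transfer, 8 fell and 2 rose, with a median of -0.02. UBE2S, which extends ubiquitin chains for the anaphase-promoting complex, read 12.02 and 12.11 in DMSO and 11.17 and 11.14 in CU27, a change of -0.91 ± 0.10 (adjusted p = 0.00442). Its partner UBE2C fell with it, by 1.00 on the log2 scale. NAE1, a subunit of the enzyme that activates NEDD8, changed by -0.64 ± 0.12, a call lost without DMSO replicate 2. Falls numbered 5 and 2 without DMSO replicates 1 and 2, and rises 1, 0 and 0 on leaving out DMSO replicate 1, DMSO replicate 2 and CU27 replicate 2, in that order.

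Kinesins and dyneins had 7 falls among 40 tested, or 17.5%, against 11.3% of all tested genes, with a median of -0.10. The 5 rises, or 12.5%, lay near the background share of 11.2%. KIF11, the motor that separates spindle poles, read 9.57 and 9.74 in DMSO and 8.57 and 8.58 in CU27, a change of -1.08 ± 0.14 (adjusted p = 0.00656). KIF20B and KIF18A, also mitotic motors, changed by -0.74 ± 0.14 and -0.67 ± 0.15. KIF3B, a motor of cilia, rose by 0.64 ± 0.13 and KIF16B, of early endosomes, by 0.78 ± 0.16. KIF11 was the one called with any array left out, and the family had 2 falls and 2 rises on leaving out DMSO replicate 1, 1 and 0 on leaving out DMSO replicate 2, and 6 and 0 on leaving out CU27 replicate 2. Nuclear pore proteins and karyopherins, with 10 falls and 2 rises among 59, came just under the rule that chose the 16 families. They had 5 falls and 1 rise on leaving out DMSO replicate 1, 2 and 1 on leaving out DMSO replicate 2, 8 and 4 on leaving out CU27 replicate 1 and 7 and 1 on leaving out CU27 replicate 2. NUP35 changed by -1.01 ± 0.16 in 4 probe sets from -1.16 to -0.94, whereas the 7 probe sets of NUP50 disagreed, from -0.97 to 0.58.

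Some changed genes were neighbours. Among 10649 tested genes placed in RefSeq order, 7 stretches held at least 4 consecutive tested genes past the test in a single direction. Of all tested genes 11.2% rose and 11.3% fell, and how many such stretches these shares alone would give was not worked out. The longest, 11 genes on chromosome 16, rose and held the metallothionein cluster with BBS2 at its edge. On chromosome 17 the stretch of 5 was HOXB3, HOXB6, HOXB7, HOXB8 and HOXB9, and on chromosome 6 both stretches of 4 held histone genes, H4C3, H2AC6, H2BC5 and H3C4 in the first and H2BC11, H2AC11 and H2BC12 beside ZNF322 in the second. Unrelated genes made up the others. On chromosome 5, GPX3, TNIP1, ANXA6, GM2A and SLC36A1 rose, led by GM2A, the activator protein of ganglioside breakdown, at 1.65 ± 0.15, from 7.30 and 7.19 to 8.81 and 8.96. On chromosome 19, MKNK2, MOB3A, AP3D1 and DOT1L rose, and on chromosome 10, NMT2, FAM171A1, MINDY3 and PTER fell. The second-highest probe set of SLC36A1 had a change of -0.14 and that of MKNK2 one of -0.20, so both directions rest on the probe set used. Calls of HOXB7, H2BC11, ZNF322, BBS2, MT1IP, ANXA6, SLC36A1, MKNK2, MOB3A, NMT2 and MINDY3 were each lost without at least 1 of the arrays. All these stretches were noticed after the calls were made. Metallothionein genes, like histone genes, resemble each other closely, so the readings of neighbours within these families may not be independent.

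The probe sets with the highest signals did not pass the test. The named ones were RPL41, RPL37A, RPS2, RPLP1, RPL32, RPL13A, FTL, ND4 and ALB, which encode ribosomal proteins, the ferritin light chain, a mitochondrial respiratory subunit and albumin. Their changes ran from -0.10 to 0.09 (adjusted p from 0.207 to 0.971). ALB read 14.39 and 14.44 in DMSO and 14.36 and 14.27 in CU27. Other genes of high signal did pass, such as H2AZ1 and SERPINA1.

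Promoters of the changed genes were searched for 13 short motifs on both strands, in the 300 bases from 250 before to 50 after the RefSeq start, which were at hand for 8859 tested genes. Among genes that rose at least 2-fold, TGACNNNGC, the core of the antioxidant response element, was found in 52 of 224 promoters, or 23.2%, against 15.4% of all tested. Among genes that fell at least 2-fold, TTTGAA, known from cell cycle genes, was found in 42 of 225, or 18.7%, against 10.3%. TATAAA was found in 11.2% of promoters of rising genes and in 11.6% of those of falling genes, against 6.15%. The metal response element core was found in 42.4% and 32.9%, against 38.7%. The E-box CACGTG was found in 10.3% and 8.89%, against 10.0%, and the hypoxia element core ACGTGC, which can overlap it, in 9.82% and 10.2%, against 8.62%. Shares for GAANNTTC or TTCNNGAA, from heat shock elements, were 11.2% and 8%, against 10.0%. CCAAT was found in 33.5% and 42.2%, against 36.5%. The cAMP response element TGACGTCA, which shares its first letters with the antioxidant core, was found in 0 of 224 and 11 of 225, or 4.89%, against 3.36%. GCATGCG, the NRF1 core, was found in 6.70% and 3.56%, against 6.33%, and TTCCCGC or TTTGGCG, from E2F sites, in 12.9% and 11.1%, against 13.1%. TCACNCCA, from sterol response elements, was found in 5.36% and 3.11%, against 3.53%, and TTGCGTG, the xenobiotic response core, in 2.68% and 1.33%, against 1.61%. The shares are descriptions of letters, and nothing is drawn from them about any factor.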

How the data were processed

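The deposited table holds log2 signals of 49395 Affymetrix probe sets. That they are on the log2 scale follows from their range, since the labels do not say. The submitters' processing notes name MAS5 without a version, and how arrays were scaled is unknown. In the platform annotation 44988 probe sets carried 1 symbol, 1832 several and 2473 none, and 102 controls were left out. limma 3.58.1 (R 4.3.3, lmFit and eBayes with an intensity trend) was fitted to the 4 Huh7.5.1 arrays, with 4.68 prior degrees of freedom beside 2 residual ones. Tests were two-sided, with Benjamini-Hochberg adjustment over 10651 genes. The number of arrays limits the precision, and the smallest exact permutation p for 2 arrays against 2 is 0.333. The fit was tested on simulated data.

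Members and lists were chosen with earlier results of these data known. The naming rule took the 25 largest rises and falls with non-overlapping arrays, ranked after raising means to the floor, per list up to 4 members in the more frequent direction and 2 in the other by smallest p, the 8 highest signals per treatment and 15 genes each way in no list, without unnamed and antisense symbols. A selection of these is printed. Further histone, HOX, SRSF, TIMP, secreted factor and neighbouring genes were chosen after their values were seen, when some list patterns that caught unrelated symbols were also corrected. Promoters came from RefSeq (GRCh38.p14) by symbol, the first by position where several exist. A further list is not reported here.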

Additional observations from a re-analysis of the deposited data

How the results depend on the processing

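With 1 array left out in turn, the number of changed genes ran from 968 to 2976, rises from 493 to 1632 and falls from 475 to 1344. With the second-highest probe set of each gene, 1559 genes changed, 775 up and 784 down. Testing every probe set gave 4228 probe sets, 2031 up and 2197 down, and an adjusted p threshold of 0.01 gave 561 genes, 270 up and 291 down. The other alternatives stayed within 1.5 times, among them quantile normalization (2372) and no floor (2136). So did adding the Hep3B DMSO arrays (2798), but the Hep3B columns labelled CU27 are exact linear functions of these, so it is not known whether the spread of the Hep3B DMSO pair is one between replicates. The replicate numbers are shared between treatments, but the labels do not pair them, and the replicate differences of the treatments correlated at 0.263 over probe sets. With the replicate block 3525 genes changed, 1762 up and 1763 down. Of 2589 values of the 178 genes named or drawn, taken over these alternatives, 2470 kept their direction and their side of the threshold, 113 kept the direction but lost the call, 3 gained one and 3 turned direction. MKNK2 was at -0.20 with its second-highest probe set, and SLC36A1 at -0.14 there and also -0.14 without _x_at and _s_at probe sets. The cause was not tested.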
